A study of Mus musculus with 2 samples.

Results

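The genes described here are 28 components of the circadian clock and its direct outputs in mouse liver, among 18194 genes that could be named on the array. They were taken from a list of gene names and sorted by role: clock activators, Per and Cry repressors, Rev-erb and ROR receptors, PAR bZIP outputs with their antagonist Nfil3, other repressors of E-box transcription, other outputs, and kinases and cofactors. All 28 were found, on 70 probe sets, which are groups of short oligonucleotides that match 1 transcript or several related ones. A gene with several probe sets was represented by the one whose signal, averaged over both arrays, was highest.

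FLS mice, an inbred strain that develops fatty liver and steatohepatitis without treatment, were the model of NASH. DS mice, inbred from a different line of the outbred colony that also gave rise to FLS mice, were the reference and the model of simple steatosis. Livers were taken at 19 weeks of age from 3 FLS and 3 DS mice, the RNA of each strain was pooled, and each pool was hybridized to 1 Affymetrix array. Both strains received the same pellet diet and water without restriction, and both were kept under 12 h of light, from 6:00 to 18:00, and 12 h of darkness. None of the sources used here gives the hour at which the livers of either strain were taken. Strain and hour of collection therefore cannot be told apart for any gene below. With 1 array per strain there is no spread between animals, no p-value can be given, and a pool of 3 mice averages any difference in phase among them.

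The mammalian clock is a transcriptional loop that runs over about a day in nearly every cell. A heterodimer of BMAL1 (gene Arntl) and CLOCK, or its relative NPAS2, activates genes through E-boxes, among them the Per and Cry genes, whose proteins return to block the activators. The Rev-erb receptors (Nr1d1, Nr1d2) repress Arntl through ROR elements, where the ROR receptors activate. The PAR bZIP factors DBP, TEF and HLF pass the rhythm on through D-boxes to liver genes of detoxification and metabolism. In mouse liver the Arntl, Clock and Npas2 transcripts are known to peak around the end of the night, Nr1d1, Nr1d2 and Dbp by day, and Per1, Per2 and several outputs around dusk.

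Most of the clock genes had FLS and DS signals within 1.5-fold of each other, while a set of outputs was lower in FLS livers. Of the 28 genes, 1 was at least 2-fold higher in FLS livers, Nr1d1, and 2 were at least 2-fold lower, Nampt and Noct. Over all 18194 genes, 0.989% reached 2-fold in the higher and 0.709% in the lower direction. At 1.5-fold, 2 of the 28 were higher (Nr1d1 and Clock) and 7 were lower (Nampt, Noct, Wee1, Nfil3, Usp2, Cry1 and Hlf), against 3.02% higher and 2.13% lower among all genes. The other 19 lay within 1.5-fold. The 7 lower genes made up 25.0% of the list, which was chosen with earlier results of these data known. Its shares beside those of all genes are therefore descriptive only. Among the 24 members with a signal above 200 in at least 1 pool the counts were the same 2 and 7, and the 7 made up 29.2%. Of all genes above that limit, 5.35% reached 1.5-fold in the higher and 3.54% in the lower direction. The log2 ratios of the 28 genes had a median of -0.07, beside -0.04 for all genes.

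**Figure D1:**
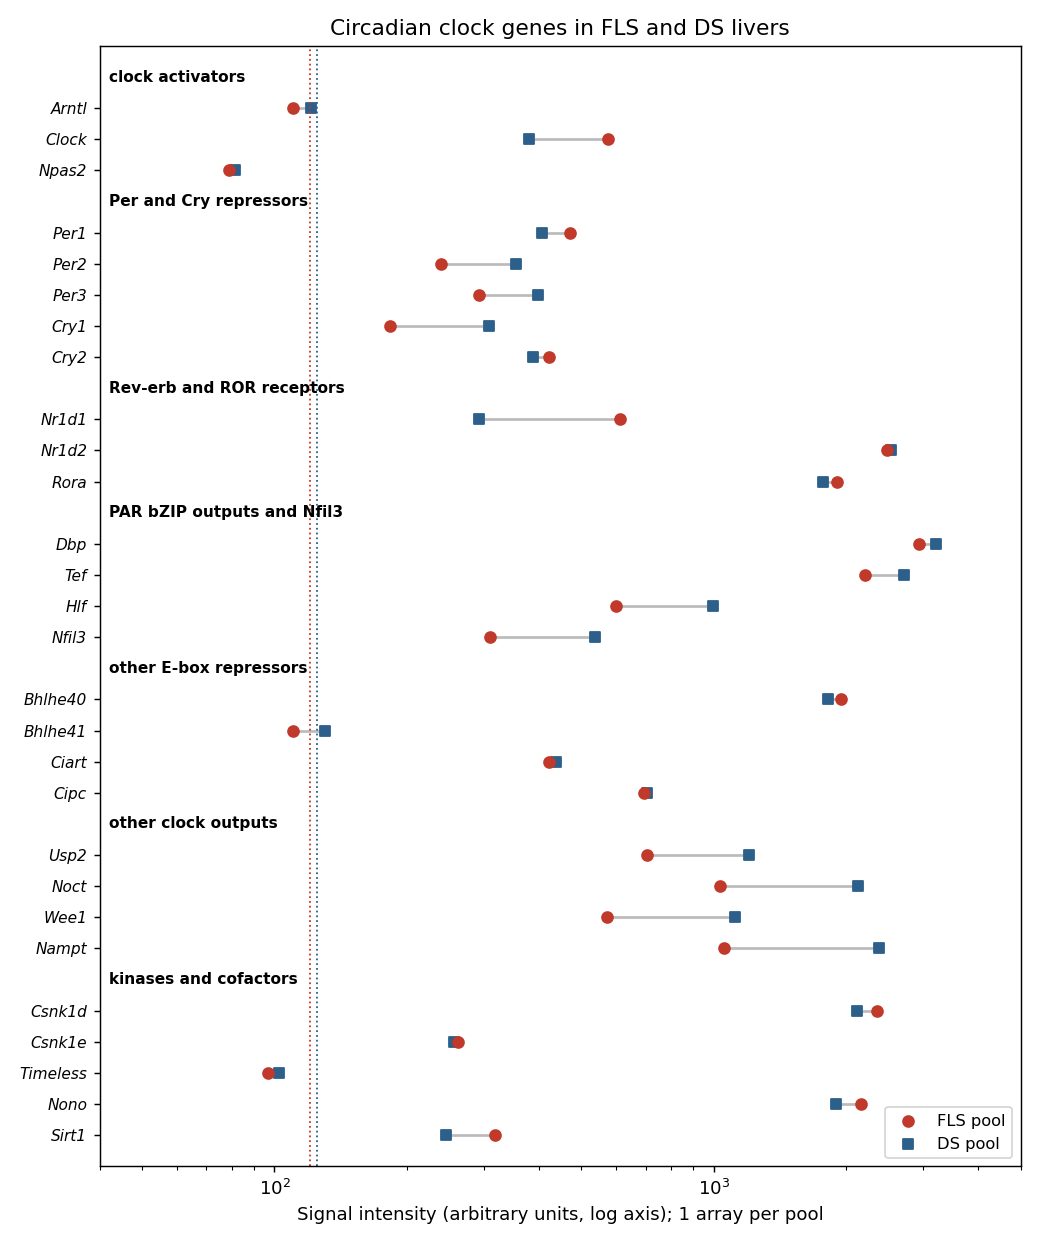
Signal intensity (log axis, arbitrary units) of the 28 clock genes in FLS livers (circles) and DS livers (squares), with 1 pooled sample per strain, sorted by role. Dotted lines mark the median signal of each array. The 4 genes under other clock outputs have their FLS signal clearly left of their DS signal, with ratios from 0.445 to 0.585, and Nr1d1 has it to the right with a ratio of 2.10.

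Scaling to Actb, a housekeeping gene with a ratio of 0.867, raised all log2 ratios by 0.21, their median included. Under this scaling the 2-fold limit was reached by 1 member in the higher and 0 in the lower direction, and the 1.5-fold limit by 2 and 4. After quantile normalization these numbers were 1 and 3 at 2-fold, and 1 and 8 at 1.5-fold. The median signal of all probe sets was 120.3 in FLS livers against 125.2 in DS livers, so signals near these values are close to the floor of the array. Arntl, Npas2 and Timeless lay below the median of both arrays.

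The DNA around the start sites of 5 of the genes that were at least 1.5-fold higher or lower is given here, since clock factors are known to act close to start sites. Nr1d1, Nampt and Noct are shown as the genes beyond 2-fold, and Cry1 and Nfil3 because their windows hold motifs of the clock loop. The windows run from 250 bases before to 50 bases after the annotated start, on the gene's own strand, from RefSeq for build GRCm38.p6. Capitals mark matches to 5 motifs, searched on both strands: the E-box CACGTG, the E'-box CACGTT, the D-box TTATGTAA, TTATGCAA or TTACGTAA, the ROR element TAGGTCA or TGGGTCA, and the cyclic AMP response element (CRE) TGACGTCA.
Nr1d1, chr11:98775328-98775627, minus strand: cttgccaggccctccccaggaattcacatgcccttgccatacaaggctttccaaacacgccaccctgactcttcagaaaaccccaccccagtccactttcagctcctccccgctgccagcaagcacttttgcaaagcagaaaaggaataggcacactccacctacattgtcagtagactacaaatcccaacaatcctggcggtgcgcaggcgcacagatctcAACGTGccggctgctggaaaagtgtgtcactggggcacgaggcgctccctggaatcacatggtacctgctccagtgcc
Nampt, chr12:32820085-32820384, plus strand: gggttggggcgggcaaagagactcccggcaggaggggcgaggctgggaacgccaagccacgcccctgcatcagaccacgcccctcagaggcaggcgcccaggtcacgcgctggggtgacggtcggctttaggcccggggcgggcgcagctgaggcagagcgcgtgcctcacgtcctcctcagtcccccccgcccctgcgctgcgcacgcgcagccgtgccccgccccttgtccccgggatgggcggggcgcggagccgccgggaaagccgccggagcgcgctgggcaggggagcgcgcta
Noct, chr3:51224197-51224496, plus strand: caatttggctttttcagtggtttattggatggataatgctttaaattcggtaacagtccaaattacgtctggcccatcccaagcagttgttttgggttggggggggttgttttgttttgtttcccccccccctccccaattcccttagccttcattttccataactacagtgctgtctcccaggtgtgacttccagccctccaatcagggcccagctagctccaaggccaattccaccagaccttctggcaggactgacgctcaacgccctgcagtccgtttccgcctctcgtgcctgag
Cry1, chr10:85185005-85185304, minus strand: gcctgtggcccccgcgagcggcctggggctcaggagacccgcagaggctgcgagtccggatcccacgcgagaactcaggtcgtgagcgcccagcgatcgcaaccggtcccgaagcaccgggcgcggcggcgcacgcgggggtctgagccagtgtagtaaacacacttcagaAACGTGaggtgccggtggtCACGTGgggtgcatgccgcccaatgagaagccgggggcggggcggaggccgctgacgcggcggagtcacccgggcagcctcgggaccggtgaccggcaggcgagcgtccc
Nfil3, chr13:52980990-52981289, minus strand: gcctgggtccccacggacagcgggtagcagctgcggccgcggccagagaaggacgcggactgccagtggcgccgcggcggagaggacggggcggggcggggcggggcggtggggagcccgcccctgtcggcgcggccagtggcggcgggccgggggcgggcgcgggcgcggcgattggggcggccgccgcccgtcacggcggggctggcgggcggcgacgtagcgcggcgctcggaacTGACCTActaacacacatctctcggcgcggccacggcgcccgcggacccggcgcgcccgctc

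The Nr1d1 window held 1 E'-box, that of Cry1 an E-box and an E'-box, that of Nfil3 a ROR element, and those of Nampt and Noct none of the 5 motifs. Of the windows not shown, those of Clock and Usp2 also held none, and neither did those of Npas2, Dbp, Rora, Nr1d2, Csnk1e and Nono, genes within 1.5-fold. Only exact matches inside these windows were searched. Sites outside them or with other letters were not looked for, so a window without a motif does not mean a gene without one. RefSeq windows were found for 24 of the 28 genes, 33 in all because some genes have several start sites. None was found for Per2, Bhlhe40, Wee1 and Csnk1d. An E-box lay in 8 of the 33 windows (24.2%), those of 7 genes (Bhlhe41, Ciart, Cipc, Cry1, Per1, Sirt1 and Tef), with 3 in the window of Ciart. Of all 32851 windows in RefSeq, 7.15% held an E-box. An E'-box lay in 3 of the 33 windows (9.09%; Cry1, Cry2 and Nr1d1), against 4.68% of all windows, and a D-box also in 3 (Per1, Per3 and Timeless), against 1.78%. A ROR element lay in 2 of the 33 windows (6.06%; Arntl and Nfil3), against 6.45% of all windows, and a CRE in 1 (3.03%; Hlf), against 1.79%. The genes with an E-box had ratios from 0.594 (Cry1) to 1.29 (Sirt1), on both sides of 1.

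**Figure D2:**
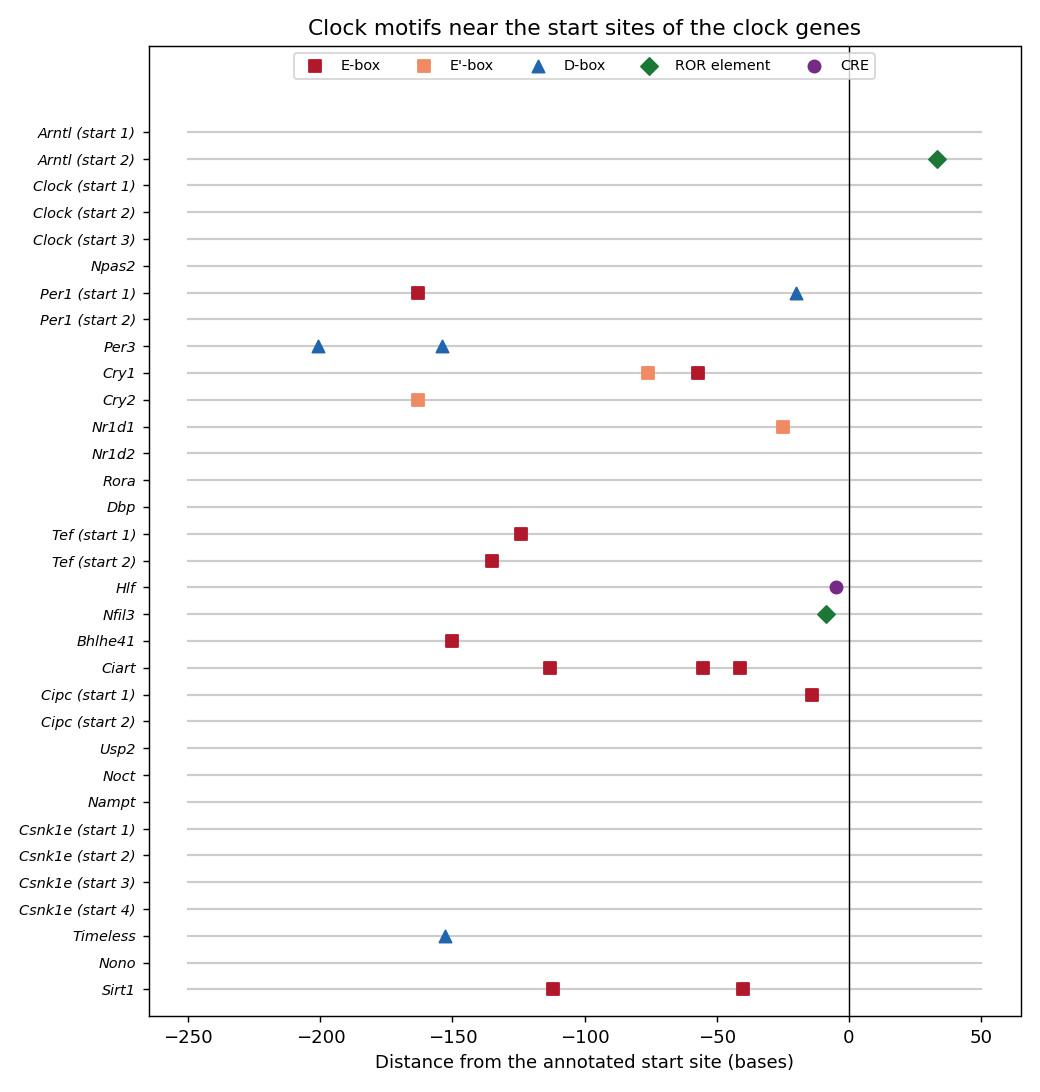
Positions of the 5 motifs (coloured marks) along the 33 start site windows of 24 clock genes, as distance from the annotated start site in bases. The 3 E-boxes of Ciart lie within 116 bases before its start, while several windows, among them those of Usp2, Noct and Nampt, carry no mark.

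Among the activators, Clock was higher in FLS livers and its partners were close to the floor of the array. Clock, the histone acetyltransferase partner of BMAL1, had a signal of 576 in FLS livers against 381 in DS livers, an FLS/DS ratio of 1.51. Its other probe sets above 200 had ratios of 1.42 and 1.08, and the median over all 4 probe sets was 1.27. Arntl gave signals of 110.4 in the FLS pool against 121 in the DS pool, an FLS/DS ratio of 0.914, and 1.28 on its other probe set. Npas2, which can take the place of CLOCK, had a signal of 79.0 in FLS livers against 81.5 in DS livers. At such signals neither a difference nor its absence between the pools was detectable for Arntl and Npas2.

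The repressors of the negative limb were uneven. Cry1, a cryptochrome that blocks CLOCK and BMAL1, gave signals of 183 in the FLS pool against 308 in the DS pool, an FLS/DS ratio of 0.594. This ratio rests on the only probe set of Cry1, with an FLS signal below 200. Per2, a period protein that carries the repressor complex into the nucleus, had a signal of 240.03 in FLS livers against 355 in DS livers, an FLS/DS ratio of 0.676 just short of 1.5-fold. Its other probe sets, with signals below 200, had ratios of 0.857 and 0.819. Per3 gave signals of 293 in the FLS pool against 398 in the DS pool, an FLS/DS ratio of 0.735. The remaining 5 probe sets of Per3 had ratios on both sides of 1, and the median over all 6 was 0.960. By contrast Per1, the period gene that responds most directly to hormonal and cyclic AMP signals, had a signal of 471 in FLS livers against 407 in DS livers, an FLS/DS ratio of 1.16. Cry2 gave signals of 421 in the FLS pool against 388 in the DS pool, an FLS/DS ratio of 1.09. The median log2 ratio of these 5 genes was -0.44, and -0.059 when each gene was read as the median over its probe sets.

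The 2 Rev-erb genes, which are known to oscillate nearly in phase, differed from each other in their ratios. Nr1d1, which encodes REV-ERB alpha, a heme-binding repressor of Arntl and of lipid metabolism genes, had a signal of 612 in FLS livers against 292 in DS livers. Its ratio of 2.10 was the highest of the 28 genes, and it rests on a single probe set. Nr1d2, which encodes REV-ERB beta, gave signals of 2488 in the FLS pool against 2529 in the DS pool, an FLS/DS ratio of 0.984. The 3' end of Nr1d1 overlaps that of Thra on the opposite strand, and Thra had a signal of 309.6 in FLS livers against 233 in DS livers, an FLS/DS ratio of 1.33. Whether Thra transcripts contributed to the Nr1d1 signal was not tested. With 50 added to both signals the ratio of Nr1d1 was 1.94, and over the other scalings it ran up to 2.42.

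Rora, the ROR receptor that activates Arntl, gave signals of 1914 in the FLS pool against 1779 in the DS pool, an FLS/DS ratio of 1.08. Of its 9 probe sets, 6 had a signal above 200 in at least 1 pool, and 5 of these had ratios between 0.791 and 1.08. The exception gave 126 in the FLS pool, near the array median, against 457 in the DS pool, and its FLS/DS ratio was 0.276. This was the lowest ratio of all 70 probe sets of the clock genes, and it stood alone among those of Rora. Which transcript or sequence this probe set reads was not tested, and no probe sequences were used.

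**Figure D3:**
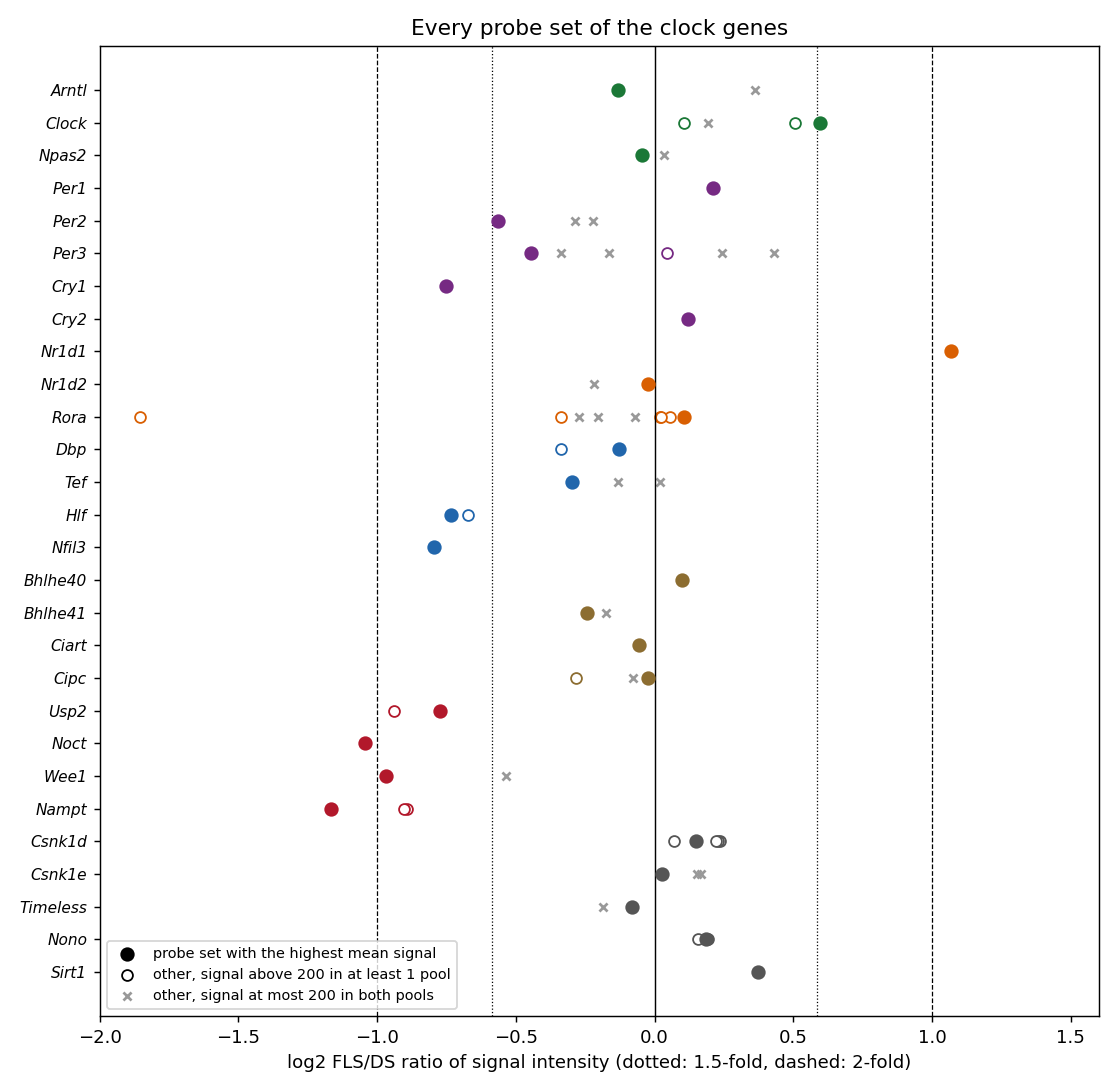
The log2 FLS/DS ratio (x axis) of each of the 70 probe sets of the 28 clock genes (rows), coloured by role. Filled points are the probe sets used as gene values, open points others above a signal of 200 in at least 1 pool and crosses those at most 200 in both. All probe sets of Nampt, Usp2 and Hlf lie left of 0, while those of Per3 lie on both sides and 1 of Rora stands far to the left at -1.86.

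The PAR bZIP factors differed little for Dbp and more for Hlf. Dbp, the D-site binding protein with one of the widest daily swings in liver, had a signal of 2932 in FLS livers against 3208 in DS livers, an FLS/DS ratio of 0.914, and its other probe set had a ratio of 0.791. Tef gave signals of 2214 in the FLS pool against 2719.9 in the DS pool, an FLS/DS ratio of 0.814. Hlf had a signal of 599 in FLS livers against 998 in DS livers, an FLS/DS ratio of 0.601, with 0.628 on its other probe set. Nfil3, a bZIP repressor that competes with these factors for D-boxes and is known to peak at the opposite time of day, gave signals of 309.6 in the FLS pool against 537 in the DS pool, an FLS/DS ratio of 0.577 on its only probe set. Nfil3 was thus lower in FLS livers together with Hlf, its antagonist. The log2 ratios of these 4 genes had a median of -0.52.

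The other repressors of E-box transcription had close signals in both pools. Ciart, also known as Chrono, had a signal of 422 in FLS livers against 438 in DS livers, an FLS/DS ratio of 0.963. Cipc, a repressor that binds CLOCK, had a ratio of 0.983, and Bhlhe40, a repressor that competes for E-boxes, had a ratio of 1.07. Bhlhe41, its relative, had a ratio of 0.846 with signals of 110.1 in FLS livers against 130.2 in DS livers, close to the array medians. None of these 4 genes reached 1.5-fold in either direction, which also holds for 17257 of all 18194 genes.

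Each of the 4 other outputs was lower in FLS livers by at least 1.5-fold, a limit that 2.13% of all genes reached in that direction. Nampt, the rate-limiting enzyme of NAD salvage, gave signals of 1058 in the FLS pool against 2376 in the DS pool, an FLS/DS ratio of 0.445. Its other probe sets had ratios of 0.539 and 0.535. Noct, which encodes nocturnin, a phosphatase of NADP(H) first described as a rhythmic deadenylase, had a signal of 1032 in FLS livers against 2131 in DS livers, an FLS/DS ratio of 0.484. A probe set annotated to Noct and to 2 other genes, and therefore not used, gave signals of 2229 in the FLS pool against 3805 in the DS pool, an FLS/DS ratio of 0.586.

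Wee1, a kinase that holds back mitosis and a known target of CLOCK and BMAL1 in liver, had a signal of 571 in FLS livers against 1118 in DS livers, an FLS/DS ratio of 0.511. Its other probe set, near the array medians, had a ratio of 0.690. Usp2, a ubiquitin protease with a strong daily rhythm in liver, gave signals of 706 in the FLS pool against 1207 in the DS pool, an FLS/DS ratio of 0.585, and its other probe set had a ratio of 0.522. The median log2 ratio of the 4 outputs was -1.01, the lowest of the 7 roles. Division by Actb made it -0.80, but shifts all genes alike and cannot change that order.

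The kinases and cofactors stayed within 1.5-fold, as did 17257 of all 18194 genes. Csnk1d and Csnk1e, the casein kinases that mark PER proteins for degradation, had ratios of 1.11 and 1.02. Over its 5 probe sets, Csnk1d had ratios between 1.05 and 1.18. Nono, an RNA-binding partner of the PER proteins, had a signal of 2163 in FLS livers against 1901 in DS livers, an FLS/DS ratio of 1.14. Timeless had a ratio of 0.946 at signals of 96.8 in FLS livers against 102 in DS livers. Sirt1, an NAD-dependent deacetylase known to act on BMAL1 and PER2, gave signals of 317 in the FLS pool against 245 in the DS pool, an FLS/DS ratio of 1.29. Sirt1 and Nampt, which lie in the same NAD loop of the clock, therefore stood on opposite sides of 1.

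Grouped by the time at which their transcripts are known to peak in mouse liver, the genes did not move as a block. Those of the day (Nr1d1, Nr1d2, Dbp, Ciart, Per3, Tef and Hlf) had a median log2 ratio of -0.13, with 6 of 7 ratios below 1 and a range between 0.601 and 2.10. Those around dusk (Per1, Per2, Usp2, Wee1, Nampt, Noct and Bhlhe41) had a median of -0.77, with 6 of 7 ratios below 1 as well, and the 4 that were at least 1.5-fold lower are the 4 outputs described above. Those of the night to dawn (Arntl, Clock, Npas2, Nfil3 and Cry1) had a median of -0.13, with 4 of 5 ratios below 1, Clock at 1.51, Nfil3 at 0.577 and Cry1 at 0.594. That median is the ratio of Arntl, which lies near the floor of the array, and among members above a signal of 200 the medians were -0.75 for night to dawn, -0.87 for dusk and -0.13 for the day. Of all genes, 57.4% had a ratio below 1, which stands beside the counts below 1 in these groups. The groups were formed with earlier results of these data known. After division by Actb, 4 of 7 ratios of the day, 1 of 7 of dusk and 3 of 5 of night to dawn were above 1. The share of all genes above 1 was then 81.3%. Nr1d1 and Hlf of the day, and Clock and Nfil3 of the night to dawn, lay at least 1.5-fold on opposite sides of 1. A single time point per strain measures neither the phase nor the amplitude of a rhythm, and a shift in phase was therefore not tested. In bulk liver RNA, fewer cells of a type and less RNA per cell also cannot be told apart.

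**Figure D4:**
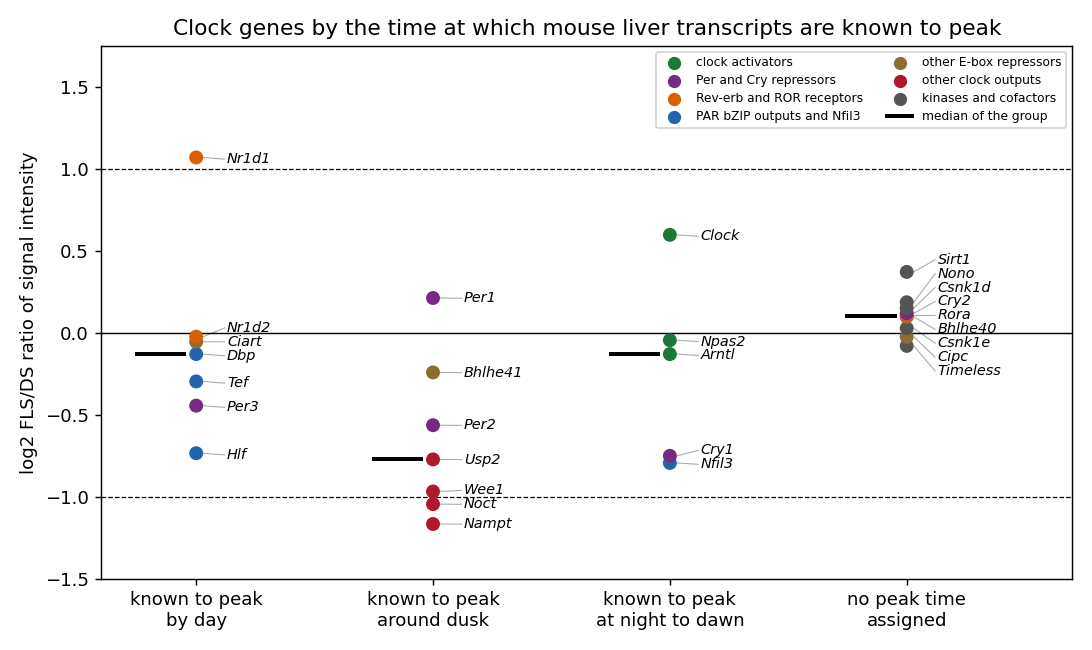
The log2 FLS/DS ratio of the 28 clock genes (y axis), grouped by the time of day at which their transcripts are known to peak in mouse liver and coloured by role. Bars mark group medians and dashed lines 2-fold. The dusk group has the lowest median at -0.77, or -0.87 above a signal of 200, where night to dawn has -0.75, and the day group spans the range from Hlf to Nr1d1.

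Genes that the clock is known to drive or that modulate it were looked up in lists of genes outside the 28. These lists, too, were chosen with earlier results of these data known, so their shares are descriptive only. Of 21 genes with a known daily rhythm in liver, 7 had an FLS signal at least 1.5-fold below and 3 at least 1.5-fold above the DS signal, with a median log2 ratio of -0.18. These are 33.3% and 14.3% of the list, beside 2.13% lower and 3.02% higher among all genes, or 3.54% and 5.35% above a signal of 200. Upp2, a uridine phosphorylase, had a signal of 2084 in FLS livers against 6757 in DS livers, an FLS/DS ratio of 0.308. Coq10b, which serves coenzyme Q, had a ratio of 0.345. On the other side, the vasopressin receptor gene Avpr1a gave signals of 352 in the FLS pool against 105 in the DS pool, below the array median, and Clpx, a mitochondrial protease subunit, had a ratio of 2.17.

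Of 21 modulators of the clock, the 1.5-fold limit was reached by 1 in the higher and 1 in the lower direction, 4.76% each and near the shares of all genes, with a median log2 ratio of 0.10. Ppargc1a, a coactivator of ROR receptors, had a signal of 219 in FLS livers against 112 in DS livers, below the array median, so that the size of its ratio is uncertain. Crem, a factor that binds cyclic AMP response elements, had a ratio of 0.633. Prkaa2, a catalytic subunit of AMPK, which is known to destabilize CRY1, had a ratio of 0.683, and the coactivator Ep300 of 1.38. Glucocorticoids set the phase of peripheral clocks. Of 10 genes that they are known to induce, 9 lay within 1.5-fold, with a median log2 ratio of 0.04. That is near the share of all genes, of which 17257 of 18194 lay within 1.5-fold, and a glucocorticoid difference was not tested. The exception was the phosphatase gene Dusp1 with a ratio of 0.568, while Tsc22d3 had 1.30, Sgk1 1.25 and Mt2 0.836.

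Since Nampt was the lowest of the clock genes, other genes of NAD synthesis and use were set beside it. Their list was also chosen with earlier results of these data known, so its shares are descriptive only. Of 17 such genes, 2 (11.8%) had an FLS signal at least 2-fold below the DS signal, beside 0.709% of all genes. None reached 1.5-fold in the higher direction, where only 3.02% of all genes did. The median log2 ratio of the list was -0.11. Nnmt, which methylates nicotinamide and so withdraws it from salvage, gave signals of 1005 in the FLS pool against 4101 in the DS pool, an FLS/DS ratio of 0.245. Nmrk1, a nicotinamide riboside kinase, had a signal of 485 in FLS livers against 1224 in DS livers, an FLS/DS ratio of 0.396. Qprt, of synthesis from tryptophan, had a ratio of 0.808, and the NAD kinase gene Nadk of 0.840. Nnmt acts on nicotinamide, as Nampt does, and Nmrk1 on nicotinamide riboside. Nnmt and Nmrk1 were the lowest of the 17 genes, and the other 15 lay within 1.5-fold. A link between their ratios and that of Nampt was not tested.

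**Figure D5:**
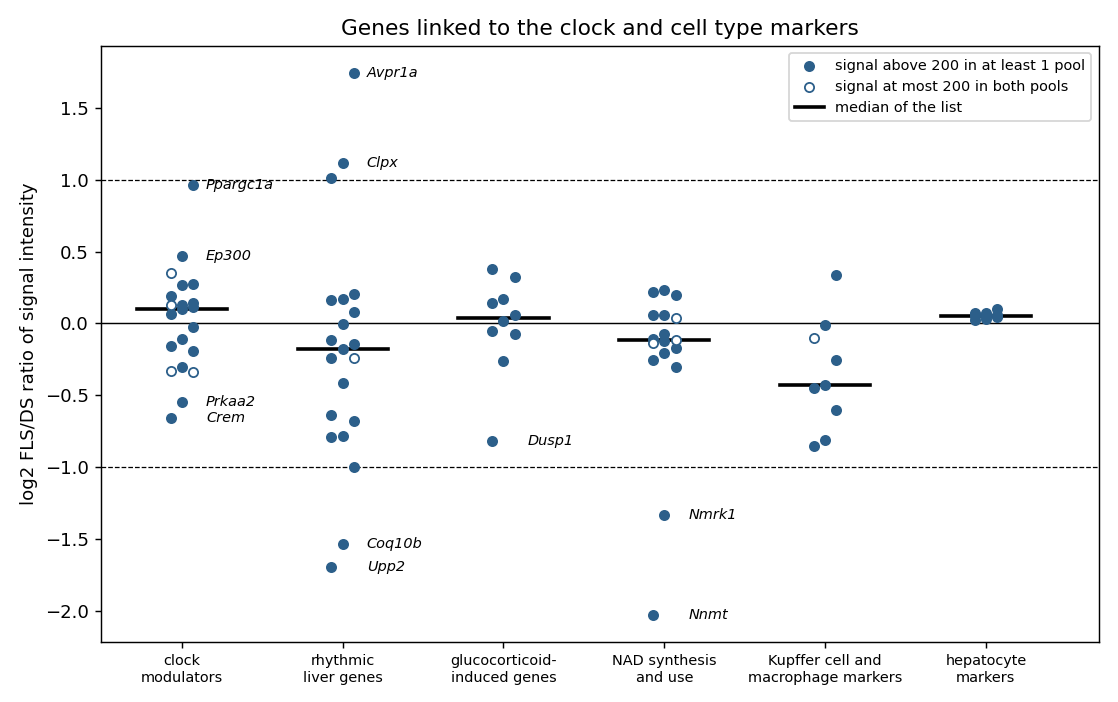
The log2 FLS/DS ratio (y axis) of genes in 4 lists linked to the clock and 2 lists of cell type markers (x axis), 1 point per gene, with the list medians as bars. The rhythmic liver genes spread from Upp2 to Avpr1a, Nnmt and Nmrk1 stand below the rest of the NAD list, and the hepatocyte markers lie close to 0.

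Markers of hepatocytes, the main cells of the liver, had ratios between 1.02 and 1.07 for all 12 genes. The marker lists were chosen with earlier results of these data known, so the shares below are descriptive only. Markers of Kupffer cells and macrophages, which also express Nampt and Nfil3, were mostly lower in FLS livers. Ratios ran from 0.554 to 1.26, and 8 of 9 were below 1 (6 of 9 after division by Actb). The 3 at least 1.5-fold lower were 33.3% of the list, beside 2.13% of all genes, or 3.54% above a signal of 200. Signals of all 9 markers of these cells summed to 4619.7 in FLS and 6095 in DS livers, and none was at 0. The part of these cells in the lower Nampt and Nfil3 signals was not tested. Of all genes, 57.4% had a ratio below 1 and 42.6% above 1, and 81.3% were above 1 after division by Actb. Of stellate cell markers, 4 of 8 had a ratio above 1 (8 of 8 after division by Actb), and the other 4 went down to 0.880. Pdgfrb at 2.02 and Pdgfra at 1.68 were at least 1.5-fold higher, with low DS signals of 179 and 147. They are 25.0% of the list, beside 3.02% of all genes, or 5.35% above a signal of 200. The signals of the 8 markers summed to 10418 in FLS livers against 7866 in DS livers. Of these sums, Dcn alone gave 6549.6 in FLS livers against 4770.01 in DS livers. For endothelial cells, 5 of 7 markers had a ratio above 1 (6 of 7 after division by Actb), with a sum of 6074 in FLS and 5420.2 in DS livers. The 1 that was at least 1.5-fold higher, Tek at 1.83, is 14.3% of the list, beside the same 3.02% of all genes. Of the neutrophil, T and NK cell, B cell and bile duct markers, 6 of 22 on the array had a signal above 200 in at least 1 pool. Over all 22, 15 ratios were below 1 and 7 above 1 (15 above 1 after division by Actb). Among the 6 above a signal of 200 was the bile duct marker Sox9 with a ratio of 2.60, at a DS signal of 140 near the array median. The median ratio of the 4 bile duct markers on the array was 0.951.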

How the data were processed

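Liver RNA pooled from 3 FLS mice and from 3 DS mice was measured on 2 Affymetrix Mouse Genome 430 2.0 arrays, 1 per strain. The authors deposited linear signal intensities, 1 per probe set, after normalization and summary by MBEI, a model-based expression index that uses perfect-match probes only. Affy is named in the submitters' processing notes with no version. No source used here states the scaling between arrays.

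FLS/DS ratios and their log2 were computed with no offset and no signal limit. Of 45101 probe sets, 34958 had 1 gene symbol, and for 34754 of these the current symbol was looked up by Entrez gene number. The 932 with several symbols and the 9211 unnamed were left out. This gave 18194 genes. A difference of at least 2-fold or 1.5-fold was counted, and no test was possible with 1 array per strain. The number of arrays, 2 in all, limits the precision. The 28 clock genes, the gene lists and the groups by role and peak time were chosen with earlier results of these data known, and the peak times come from general knowledge. All 28 genes are described. From each of the 4 lists linked to the clock, the 4 genes with the largest absolute log2 ratio above a signal of 200 are named. Hepatocyte, immune, endothelial, stellate and bile duct markers were given by list, and the 5 of them named singly were chosen after their values were seen.

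Alternatives were quantile normalization, centring on the median, removal of a loess trend (fraction 0.4), division by Actb, an offset of 50, the median over probe sets, omission of probe sets ending in _x_at or _s_at, and signal limits of 200 and 500. A log2 ratio or list median counted as moved from a shift of 0.18, the pooled SD between probe sets above 500 in both pools over 1198 genes, and a count at more than 1.5 times. The calculations were tested on simulated data. Software was numpy 2.4.6, pandas 2.3.3 and statsmodels 0.14.6 under Python 3.11.15, with figures from matplotlib 3.10.9.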

Additional observations from a re-analysis of the deposited data

How the results depend on the processing

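No clock gene beyond 1.5-fold changed direction under any of the 7 alternatives that change the values of single genes. For several of these alternatives this was fixed in advance. An offset cannot reverse a ratio. Centring and division by Actb shift every log2 ratio by 0.036 and 0.21, less than 1.5-fold. Nr1d1, Cry1, Nfil3 and Noct have a single probe set, so the choice among probe sets could not change them. Division by Actb shifted all values upward by 0.21 on the log2 scale, and with them the median of all genes, which became 0.17. Under it the number of clock genes at least 2-fold lower was 0 and at least 1.5-fold lower 4, and the list medians were 0.16 for the activators, -0.24 for the Per and Cry genes, 0.31 for the Rev-erb and ROR genes, -0.31 for the PAR bZIP genes with Nfil3, 0.17 for the other E-box repressors, -0.80 for the other outputs, 0.36 for kinases and cofactors, 0.075 for the genes of night to dawn and also of the day, -0.57 for those of dusk, 0.30 for modulators, 0.025 for rhythmic liver genes, 0.24 for glucocorticoid-induced genes and 0.092 for NAD genes. Several of these medians thus changed sign, while relative to the median of all genes they did not move. With an offset of 50 the number at least 2-fold higher was 0 and at least 1.5-fold higher 1, which was also 1 under quantile normalization, loess and the median over probe sets, where Clock fell short of the limit. The median over probe sets left 1 gene at least 2-fold lower, Noct, and moved the Per and Cry median to -0.059, since the probe sets of Per3 disagree. Above a signal of 200 or 500 the activators consist of Clock alone, at 0.60. Above 200 the genes of night to dawn had a median of -0.75, since Arntl and Npas2 drop out, and above 500 those of dusk -1.01, since Per1, Per2 and Bhlhe41 drop out and only the 4 outputs are left. For single clock genes, all 28 shifted under division by Actb, 6 under the median over probe sets and 2 without _x_at and _s_at probe sets, and none under the other 4 alternatives. No paired analysis was possible because each strain has 1 array, and no array could be left out for the same reason. Genes near the array medians, Arntl, Npas2, Timeless and Bhlhe41, have little signal over background.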
